A study of Rattus norvegicus with 6 samples.

Results

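The insulin-like growth factor (IGF) family was examined in rat RA-FLS, the fibroblast-like synoviocytes of rheumatoid arthritis that line the joint. Its members were the 10 genes of the deposited count table named Igf1, Igf2, Igf1r and Igfbp1 to Igfbp7, out of 34156 genes in all. There were 6 libraries, 3 from cells exposed to TNF-α at 10 ng/mL, called the TNF-α group, and 3 to the same TNF-α dose plus 80 μmol/L emodin, called the TNF-α+EMO group, all labelled wild type. Emodin (EMO) is an anthraquinone of rhubarb. TNF-α is the inflammatory cytokine used here to model the inflamed joint, and as all the cells received it, the data hold no measurement of what TNF-α itself did to the family. The labels give day 5 for every sample, whereas the study's methods describe a shorter incubation. The labels do not say whether the replicates came from separate cultures or animals, so p-values measure the spread between these libraries. Poly(A)-selected libraries were sequenced, and the number of reads on each gene was deposited.

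IGF1 and IGF2 are secreted growth factors. They signal through the tyrosine kinase encoded by Igf1r, a receptor closely related to the insulin receptor. The IGF-binding proteins hold most IGF outside cells, prolong its life and keep it from or deliver it to the receptor, and proteases that cut them release it. In connective tissue cells IGF signaling promotes growth, survival and matrix production. IGFBP7 is the distant member of the group and binds IGF weakly.

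The libraries held 16813322 to 17794455 counts on genes, so that 3 counts, taken here as the floor of detection, stand for 0.169 to 0.178 CPM (counts scaled to a common library total). Between replicates, a chi-square statistic per gene, which would be near 1 for sampling noise alone, was 4.62 to 5.73 in the TNF-α group and 6.27 to 23.5 in the TNF-α+EMO group. TNF-α+EMO replicate 3 stood apart from replicates 1 and 2 in this measure (23.5 and 15.1). The labelled cell type was checked against 15 markers of synovial fibroblasts, of which 14 were in the table. Col1a1 (collagen) held 102801 to 121730 counts in the TNF-α libraries, and Pdgfra and Vim were also abundant, but Pdpn held at most 1 count, Prg4 at most 4 and Thy1 at most 7 in any library. Of the 9 fibroblast markers tested, 8 were lower with EMO and Dcn was higher (adjusted p under 0.05 by edgeR). Over all genes tested 41.4% were lower and 39.4% higher. The summed normalized level of the list went from between 200677 and 220802 to between 35162 and 37835. Most of this sum was Col1a1 and Vim, whose means went from 111181 to 3709 and from 61464 to 32387. Dcn held 0, 4 and 1 counts under TNF-α alone and 33, 24 and 26 with EMO, and Lum and Fap held 0 with EMO. Dcn, Lum and Fap thus reached the counts needed for a test in a single group, which fixed their direction. Ptprc, Cd163 and Adgre1 of macrophages and all but 1 of the lymphocyte markers held at most 3 counts in every library. Krt8, an epithelial keratin, held 10193 to 11087 counts in the TNF-α libraries and 1908 to 2262 with EMO, while Epcam was at 0 throughout. Of the 2 macrophage markers tested, Cd14 was lower with EMO (log2 fold change -1.10) and Cd68 was higher (0.75). The summed level of that list, most of it Cd14, was 1206 to 1311 in the TNF-α group and 734 to 804 with EMO. The endothelial, smooth muscle and chondrocyte lists were also lower in sum. In the TNF-α group these sums were mostly a single gene each, namely Vwf, Myh11 and Sox9. Most of these lists were thus lower in sum with EMO, though Cd68 and Dcn, the latter near the floor under TNF-α alone, were higher and Des did not pass. Their part in the changes of the IGF family was not tested.

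Of the 10 members, 5 were expressed well enough to test, with at least 10 counts in all 6 libraries, namely Igf1r, Igfbp4, Igfbp5, Igfbp6 and Igfbp7. All 5 were lower in the TNF-α+EMO group by edgeR's quasi-likelihood test (adjusted p under 0.05), and each by more than 1 on the log2 scale. Among all 13614 genes tested, 41.4% were lower at this adjusted p, and with a change of more than 1 on the log2 scale 27.8% were lower and 19.5% higher. For the 5 members the median log2 fold change (TNF-α+EMO over TNF-α) was -3.60, beside -0.01 over all genes tested. The scaling sets this last value near 0 (-0.125 with library totals alone), and the members were chosen with earlier results of these data known. In each of the 5 the groups did not overlap in normalized counts (counts scaled to a common library size), as in 82.9% of all genes tested. In such bulk libraries, fewer cells of a type and less RNA per cell cannot be told apart. The other 5 members, both ligands among them, held from 0 to 6 counts in each library and were not tested.

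**Figure D1:**
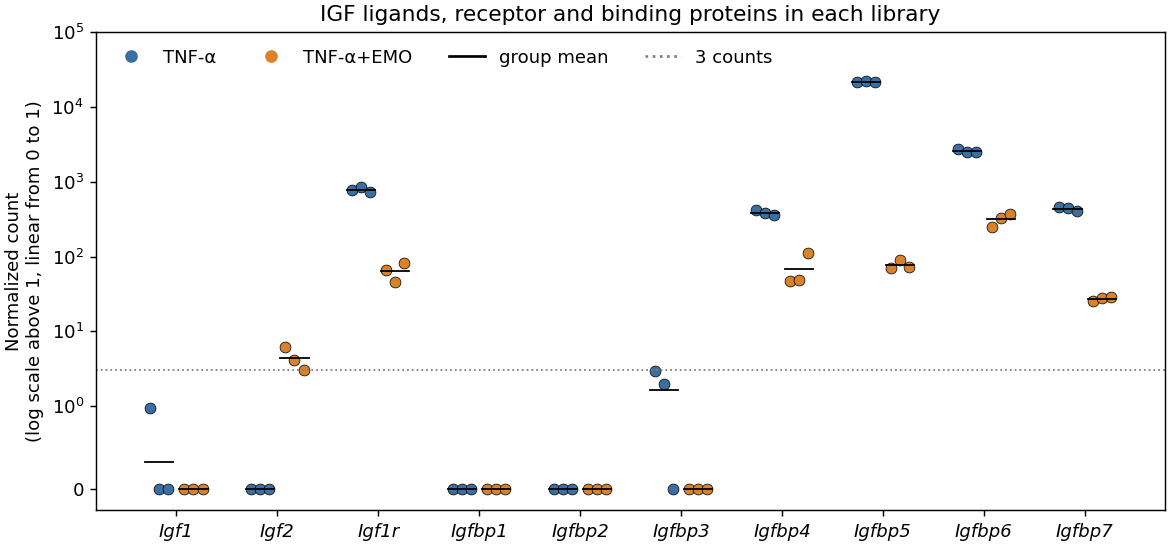
Normalized counts of the 10 members (y axis, log scale above 1 and linear from 0 to 1) in the 3 TNF-α and the 3 TNF-α+EMO libraries, with points for libraries, bars for group means and a dotted line at 3 counts. Igfbp5 goes from at least 21415 to at most 91.1, and both ligands stay at 6.19 or below in every library.

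The ligands were scarce in both groups. Igf1 (chromosome 7, 28412198 to 28486609 in the deposited coordinates, whose build is Rnor_6.0 per the submitters' processing notes), which encodes IGF1, had 1, 0 and 0 counts under TNF-α alone and 0 in each library with EMO. Igf2 (chromosome 1, 215828102 to 215846911), which encodes the fetal growth factor IGF2, had 0 counts in every library under TNF-α alone and 6, 4 and 3 with EMO. Igf2 was thus the member that went the other way, with its mean under EMO 1.52-fold above the floor of 3 counts per library. As its own counts with EMO are as uncertain as the floor, this is not a lower bound. With no filter on low counts its difference had an adjusted p of 0.0063 by edgeR. This level lies close to the floor in every library. Insulin itself was not seen, as Ins1 and Ins2 held 0 counts in every library.

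The receptor fell. Igf1r (chromosome 1, 128924966 to 129206516) had 800, 873 and 744 counts under TNF-α alone and 64, 45 and 81 with EMO. Every TNF-α library was far above every TNF-α+EMO library, and the latter differed among themselves by a wider factor than the former. The normalized count went from 787 ± 63.3 to 64.9 ± 18.3 (SD, n = 3 each), a 12.1-fold fall. Its log2 fold change was -3.60 (standard error 0.17, adjusted p = 7.1e-09 by edgeR).

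The other tested receptors of insulin and IGF fell less. Per kb of gene length, the normalized level of Igf1r was 192 ± 15.4 in the TNF-α group and that of Insr, the insulin receptor, was 143 ± 7.89, whereas Igf2r, which clears IGF2 and carries lysosomal enzymes, stood at 1543 ± 45.3 (SD, n = 3 each). With EMO the levels per kb were 15.8 ± 4.45 for Igf1r, 71.1 ± 3.67 for Insr and 1185 ± 22.6 for Igf2r. The log2 fold change was -1.01 for Insr (standard error 0.08, adjusted p = 5.3e-07 by edgeR) and -0.38 for Igf2r (standard error 0.05, adjusted p = 4.9e-05). Per kb, Igf1r was therefore above Insr in each TNF-α library, with ratios of 1.26, 1.52 and 1.25. It was below Insr in each TNF-α+EMO library, with ratios of 0.220, 0.168 and 0.275. The order under TNF-α alone rests on the division by length. Undivided counts of Insr there were 1080, 976 and 1012, above those of Igf1r in every library. The ratio per kb was examined after the values were seen and was not tested. Insrr, the insulin receptor-related receptor, held 0 counts throughout.

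**Figure D2:**
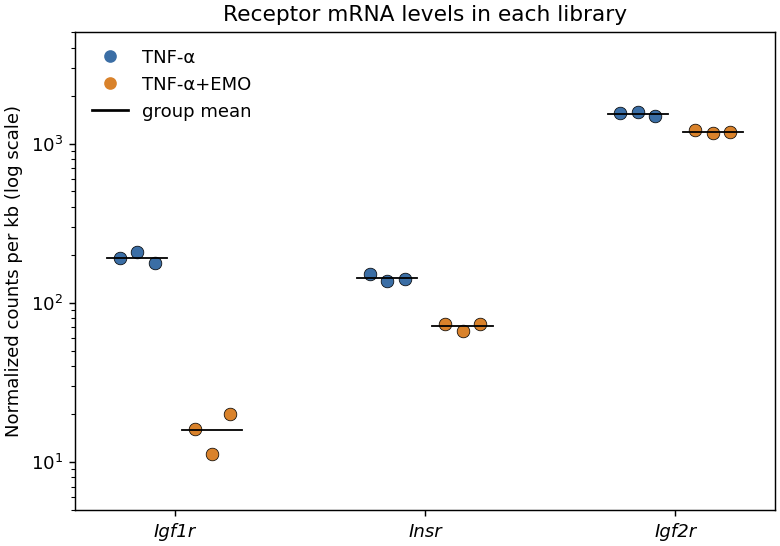
Normalized counts per kb of gene length (y axis, log scale) of Igf1r, Insr and Igf2r in the 3 TNF-α and the 3 TNF-α+EMO libraries, with points for libraries and bars for group means. Per kb, but not in undivided counts, Igf1r lies above Insr in the TNF-α libraries. With EMO Igf1r lies below Insr, while Igf2r stays at 1168 or more in every library.

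Among the binding proteins, Igfbp5 was the most abundant in the TNF-α group and had the lowest log2 fold change. IGFBP5 binds IGF strongly, attaches to the matrix and is a typical product of fibroblasts. Igfbp5 (chromosome 9, 80150211 to 80167033, minus strand) had 22332, 22947 and 21983 counts under TNF-α alone and 68, 89 and 72 with EMO. Replicates within each group lay close together, and the groups were far apart. The normalized count was 21899 ± 481 and 78.2 ± 11.3 (SD, n = 3 each), a 279.6-fold fall, with its log2 fold change at -8.13 (standard error 0.10, adjusted p = 8.1e-13 by edgeR). By level per kb it ranked 315 of the 13614 genes tested in the TNF-α group and 11534 with EMO. Its log2 fold change was the 161st lowest of all genes tested, a rank that depends on the small count edgeR adds for genes at the floor.

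Igfbp6 was second to Igfbp5 in the TNF-α group and, although it fell, was the most abundant binding protein with EMO. IGFBP6 prefers IGF2 over IGF1. Igfbp6 (chromosome 7, 143749221 to 143754054) had 2808, 2543 and 2563 counts under TNF-α alone and 244, 319 and 364 with EMO. All TNF-α+EMO libraries were well below the TNF-α libraries, with replicate 1 the lowest. The normalized count went from 2577 ± 154 to 316 ± 60.2 (SD, n = 3 each), an 8.14-fold fall (log2 fold change -3.03, standard error 0.12, adjusted p = 3.5e-09 by edgeR).

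Igfbp4 fell least among the tested members and was the least even between replicates. IGFBP4 is an inhibitor of IGF action that the protease PAPP-A cuts. Igfbp4 (chromosome 10, 86950557 to 86962578) had 423, 396 and 372 counts under TNF-α alone and 46, 48 and 109 with EMO. TNF-α+EMO replicate 3 held more counts than replicates 1 and 2 summed, yet still lay below every TNF-α library. The log2 fold change was -2.48 (standard error 0.30, adjusted p = 7.7e-05 by edgeR), and without TNF-α+EMO replicate 3 it was -3.01 (standard error 0.15).

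Igfbp7 (chromosome 14, 33010300 to 33070190) had 465, 453 and 414 counts under TNF-α alone and 25, 27 and 28 with EMO. The 3 TNF-α+EMO libraries were nearly alike, and the groups were far apart. The log2 fold change was -3.98 (standard error 0.14, adjusted p = 5.3e-10 by edgeR), from 434 ± 27.3 to 27.3 ± 1.40 normalized counts (SD, n = 3 each). The gene overlaps Polr2b on the opposite strand, which held 1543 to 2262 counts. It also overlaps Rpl39 on that strand, which had 57, 58 and 70 counts under TNF-α alone and 86, 95 and 142 with EMO. The strand setting of the counting is not given in the sources used here, so reads of these genes may not be fully parted.

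The remaining binding proteins were at the floor in both groups. Igfbp3 (chromosome 14, 87457647 to 87465374), the main carrier of IGF in blood, had 3, 2 and 0 counts under TNF-α alone and 0 in each library with EMO. Igfbp1 (chromosome 14, 87448692 to 87453785), a product of liver, and Igfbp2 (chromosome 9, 80118029 to 80144789) held 0 counts in all 6 libraries, which allows up to 3 counts in each. Igfbp2 is the neighbour of Igfbp5, 5421 bases away with no listed gene between them, so that a silent and an abundant member of the family lay side by side in the TNF-α group. Igfbp1 and Igfbp3 are neighbours 3861 bases apart, and neither passed the floor.

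Compared per length, the order of the members differed between the groups. In the TNF-α group the normalized level per kb was 3733 ± 82.0 for Igfbp5, 2411 ± 144 for Igfbp6, 394 ± 24.8 for Igfbp7, 192 ± 15.4 for Igf1r and 178 ± 12.1 for Igfbp4 (SD, n = 3 each), of which the last pair overlapped between libraries. With EMO it was 296 ± 56.3 for Igfbp6, 31.8 ± 16.7 for Igfbp4, 24.8 ± 1.27 for Igfbp7, 15.8 ± 4.45 for Igf1r and 13.3 ± 1.92 for Igfbp5. Igfbp6 was clearly first in this group, while Igfbp4 overlapped with Igfbp7 and Igf1r overlapped with Igfbp5.

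The summed level of Igfbp1 to Igfbp7 per kb was 6917, 6714 and 6519 under TNF-α alone and 293, 369 and 436 with EMO, 18.4-fold lower on average. The groups did not overlap, and the exact two-sided permutation p was 0.1, the smallest that 3 libraries against 3 allow. Of this sum, Igfbp5 made up 54.0%, 56.8% and 56.0% under TNF-α alone and 4.09%, 4.21% and 2.87% with EMO. Igfbp6 made up 37.3%, 34.6% and 35.8% under TNF-α alone and 80.5%, 82.9% and 79.5% with EMO. Per kb, the binding protein mRNA was thus shared mainly by Igfbp5 and Igfbp6 under TNF-α and was mostly Igfbp6 with EMO (exact permutation p = 0.1 for each). The share of Igfbp4 was 2.65% ± 0.101 and 8.42% ± 2.91 (SD, n = 3 each, exact permutation p = 0.1), and that of Igfbp7 was 5.86% ± 0.210 and 6.91% ± 1.04 (exact permutation p = 0.3). These shares are set within a library and do not depend on scaling between libraries, but they do depend on the division by length. In undivided counts Igfbp5 held 22332, 22947 and 21983 under TNF-α alone, beside 2808, 2543 and 2563 for Igfbp6. The difference in the share of Igfbp5 (TNF-α+EMO minus TNF-α) was -70.3 percentage points undivided, beside -51.9 per kb. The ligands were at or near the floor in all 6 libraries, so the level of Igfbp1 to Igfbp6 over that of both ligands has only a lower bound. With each ligand held at its own count or at 3 counts, whichever was higher (a choice made after the data were seen), it was at least 3022 to 3172 in the TNF-α libraries and at least 99.5 to 193 with EMO. With the ligand sum held instead at what 3 counts on Igf1 alone would give, the values were 4053 to 4254 and 168 to 259, which are not bounds. No test of the difference can be made.

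**Figure D3:**
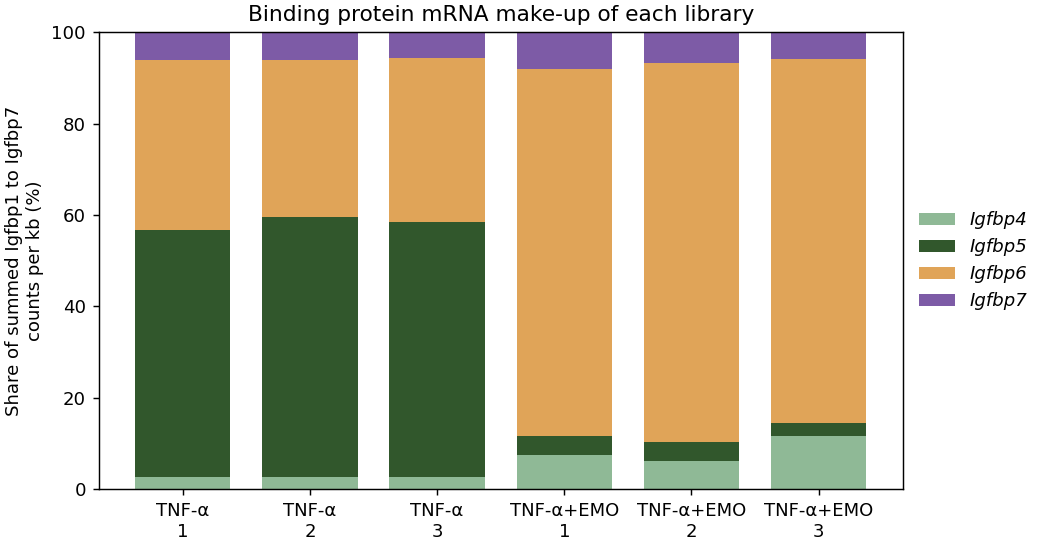
Share of each binding protein in the summed counts per kb of Igfbp1 to Igfbp7 (y axis, percent) for the 3 TNF-α and the 3 TNF-α+EMO libraries, as stacked bars. Igfbp5 takes 54.0% to 56.8% of each TNF-α bar and at most 4.21% with EMO, where Igfbp6 takes 79.5% or more. Igfbp1, Igfbp2 and Igfbp3, at most 0.0177% of any library, are not drawn.

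Since these members fell together, the bases before their start sites are shown for the member that fell most, the member most abundant with EMO and the receptor. Each is the 250 bases before the RefSeq start in build GRCr8, which is not the build of the deposited coordinates, on the strand of the gene and 5′ to 3′, with motif matches in capitals.
Igfbp5, chr9:81914188-81914437, minus strand: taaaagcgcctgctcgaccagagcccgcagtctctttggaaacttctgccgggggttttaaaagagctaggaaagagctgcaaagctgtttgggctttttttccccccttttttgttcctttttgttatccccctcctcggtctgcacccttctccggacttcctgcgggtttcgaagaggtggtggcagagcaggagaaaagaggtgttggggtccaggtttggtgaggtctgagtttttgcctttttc
Igfbp6, chr7:135154669-135154918, plus strand: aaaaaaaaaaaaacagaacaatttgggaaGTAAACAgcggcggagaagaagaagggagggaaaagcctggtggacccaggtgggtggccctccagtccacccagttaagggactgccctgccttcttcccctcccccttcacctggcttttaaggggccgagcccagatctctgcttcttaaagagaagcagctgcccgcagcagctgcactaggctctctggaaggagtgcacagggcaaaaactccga
Igf1r, chr1:130959747-130959996, plus strand: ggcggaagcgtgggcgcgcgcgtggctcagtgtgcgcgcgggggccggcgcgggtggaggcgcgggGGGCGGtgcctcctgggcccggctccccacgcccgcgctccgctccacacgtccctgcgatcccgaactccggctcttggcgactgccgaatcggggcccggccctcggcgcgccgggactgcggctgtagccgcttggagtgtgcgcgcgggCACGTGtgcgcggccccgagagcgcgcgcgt
The motifs searched on both strands were the TATA box (TATAAA), the GC box (GGGCGG), the CCAAT box (CCAAT), the E-box (CACGTG), an AP-1 site (TGANTCA), a FoxO site (GTAAACA) and the NF-κB consensus. The Igfbp5 window held none of these letters. The Igfbp6 window held the FoxO letters 221 bases before the start, which 3.21% of all 33469 windows of this length hold. The GC-rich Igf1r window (79.6% G or C) held a GC box, as do 30.5% of all windows, and an E-box 31 bases before the start, as do 5.59%. Of the windows not printed, that of Igfbp4 held a TATA box 40 bases before the start (12.9% of all windows hold it) and that of Igfbp7 held 4 GC boxes. The windows of the 5 tested members had no AP-1 site, CCAAT box or NF-κB consensus, which 6.34%, 34% and 3.54% of all windows hold, so none of the searched motifs was common to all 5 of them. The absence of a motif in this window says nothing of the factor that binds it.

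The genes around the family were taken from 8 lists of 66 names, older symbols included, of which 57 were in the table and 47 were tested. By edgeR's quasi-likelihood test (adjusted p under 0.05), 35 of the 47 were lower with EMO, 7 were higher and 5 did not pass. Of the 35, Adam12 and Htra3 reached the counts needed for a test in the TNF-α group alone. Over all genes tested 41.4% were lower and 39.4% higher, 80.9% in all, which is the background for the count of each list below. For the 47 genes the median log2 fold change was -1.28, beside -0.01 over all genes, a value that the scaling sets near 0. These lists were chosen with earlier results of these data known.

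The proteases and inhibitors that set how much IGF is free moved in both directions. Of 6 tested, 4 were lower and 2 higher (median log2 fold change -1.57), beside 41.4% lower and 39.4% higher of all genes tested. Adam12 and Htra3 reached the counts needed for a test in the TNF-α group alone, which fixed the direction of Htra3. Stc2, stanniocalcin 2, which inhibits the pappalysin proteases, had 28, 28 and 34 counts under TNF-α alone and 1421, 1564 and 2005 with EMO. It rose (log2 fold change 5.85, standard error 0.17, adjusted p = 1.5e-10 by edgeR), with no overlap between the groups. Pappa2, a pappalysin that cuts IGFBP3 and IGFBP5, had 31, 27 and 38 counts under TNF-α alone and 277, 267 and 227 with EMO (log2 fold change 3.07, standard error 0.18, adjusted p = 4.3e-08 by edgeR). A protease and an inhibitor of its class thus rose in the same libraries. Adam12, a metalloprotease that cuts IGFBP3 and IGFBP5, fell from 2083, 2284 and 2064 counts to 7, 15 and 36 (log2 fold change -6.72, and -7.52 without TNF-α+EMO replicate 3). Htra1, a secreted serine protease, and the metalloprotease gene Adam9 fell, with log2 fold changes of -1.81 and -1.33. Htra3 held 30 to 47 counts in the TNF-α libraries and 0 with EMO, at least 13.0-fold lower. Igfals, the carrier partner of IGFBP3 in blood, and Stc1 held at most 4 counts in any library, and Pappa was not analysed here.

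Of the cell surface proteins that bind IGFBP3, Lrp1, a large endocytic receptor, fell (log2 fold change -3.22, standard error 0.08, adjusted p = 3.9e-11 by edgeR), and Tmem219 had 528 ± 34.1 and 527 ± 7.87 normalized counts (SD, n = 3 each, adjusted p = 0.97 by edgeR).

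The receptor adaptors were divided. Of 14 tested, 8 were lower, 3 higher and 3 did not pass (median log2 fold change -0.36). The insulin receptor substrates, docking proteins of both the IGF1 and the insulin receptor, moved in opposite directions. Irs1 had 520, 538 and 537 counts under TNF-α alone and 101, 97 and 78 with EMO (log2 fold change -2.46, standard error 0.12, adjusted p = 9.0e-09 by edgeR). Irs2 had 560, 586 and 533 counts under TNF-α alone and 1607, 1374 and 1457 with EMO (log2 fold change 1.47, standard error 0.08, adjusted p = 2.7e-08 by edgeR). The groups did not overlap in either gene, and per kb the mean level was 97.0 for Irs1 and 84.1 for Irs2 in the TNF-α group, and 17.6 and 233 with EMO. Among the subunits of phosphoinositide 3-kinase, the regulatory Pik3r1 and Pik3r3 fell, with log2 fold changes of -3.56 and -4.62. The regulatory Pik3r2 fell less (-0.46, adjusted p = 3.3e-04 by edgeR). Its mean level per kb with EMO was 470, beside 54.7 for Pik3r1 and 5.51 for Pik3r3. The catalytic Pik3ca and Pik3cb had log2 fold changes of -0.09 and -0.25 and did not pass. Pik3cb did pass when scaled by library totals alone or by upper quartile (adjusted p of 0.014 and 0.034 by edgeR). It also passed with a filter of at least 50 counts in at least 3 libraries (0.046). The fits without TNF-α replicate 1 or TNF-α+EMO replicate 1 called it as well (adjusted p of 0.034 and 0.024 by edgeR). Grb14, which inhibits the insulin receptor, and the phosphatase gene Ptpn1 fell, with log2 fold changes of -4.65 and -1.22. The adaptor gene Grb2 rose and the phosphatase gene Ptpn11 fell by little (log2 fold changes of 0.33 and -0.15), and Grb2 was at 0.17 without TNF-α+EMO replicate 3. Both calls were lost without TNF-α replicate 2 (adjusted p of 0.058 and 0.074 by edgeR). The call of Ptpn11 was also lost without TNF-α replicate 1 or TNF-α+EMO replicate 2 (0.079 and 0.055), and that of Grb2 when scaled by library totals alone (0.074).

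Of the FoxO factors, most of which IGF signaling keeps out of the nucleus, all 4 were lower, beside 41.4% of all genes tested. Their log2 fold changes ran from -0.32 for Foxo4 to -1.50 for Foxo6, with a median of -1.27. The groups overlapped in Foxo4, and its call (adjusted p = 0.022 by edgeR) was lost in 4 of the 6 fits that each left out a library, those without TNF-α replicate 1 or 2 or without TNF-α+EMO replicate 1 or 2 (adjusted p from 0.056 to 0.083). In the growth hormone axis, which drives Igf1 in liver, 4 of 6 were lower, beside 41.4% of all genes tested. The 4 were Jak2, Stat5a, Stat5b and Cish, and the feedback inhibitor Socs2 was higher (log2 fold change 0.95). Ghr, the receptor, had 152 ± 7.13 and 148 ± 6.29 normalized counts (SD, n = 3 each, adjusted p = 0.79 by edgeR).

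The genes that act on Igf2 mRNA or its locus were 4 lower and 1 higher of 5 tested. The mRNA-binding Igf2bp2 rose (log2 fold change 1.03, standard error 0.08), whereas Igf2bp1 and Igf2bp3 fell, with log2 fold changes of -0.37 and -1.41 (adjusted p from 3.1e-07 to 0.0036 by edgeR over the 3). The imprinted regulator Plagl1 fell (log2 fold change -2.61). H19 was not analysed here.

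The relatives that carry an IGFBP-like domain but are not classical binding proteins were all lower with EMO, 8 of 8 tested. Over all genes tested 41.4% were lower. The median log2 fold change of the 8 was -4.04. Ccn2, the matricellular connective tissue growth factor, went from 11944, 11327 and 10970 counts to 44, 89 and 58 with EMO (log2 fold change -7.41, standard error 0.18, adjusted p = 7.1e-10 by edgeR). The log2 fold change was -5.49 for Ccn3, -3.53 for Ccn5 and -1.29 for Ccn1. Esm1, Kazald1 and Crim1, which also hold the domain, had log2 fold changes of -5.63, -4.55 and -3.21, and Ccn4 fell least (-0.53). Igfbpl1 and Ccn6 held at most 2 counts in any library.

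**Figure D4:**
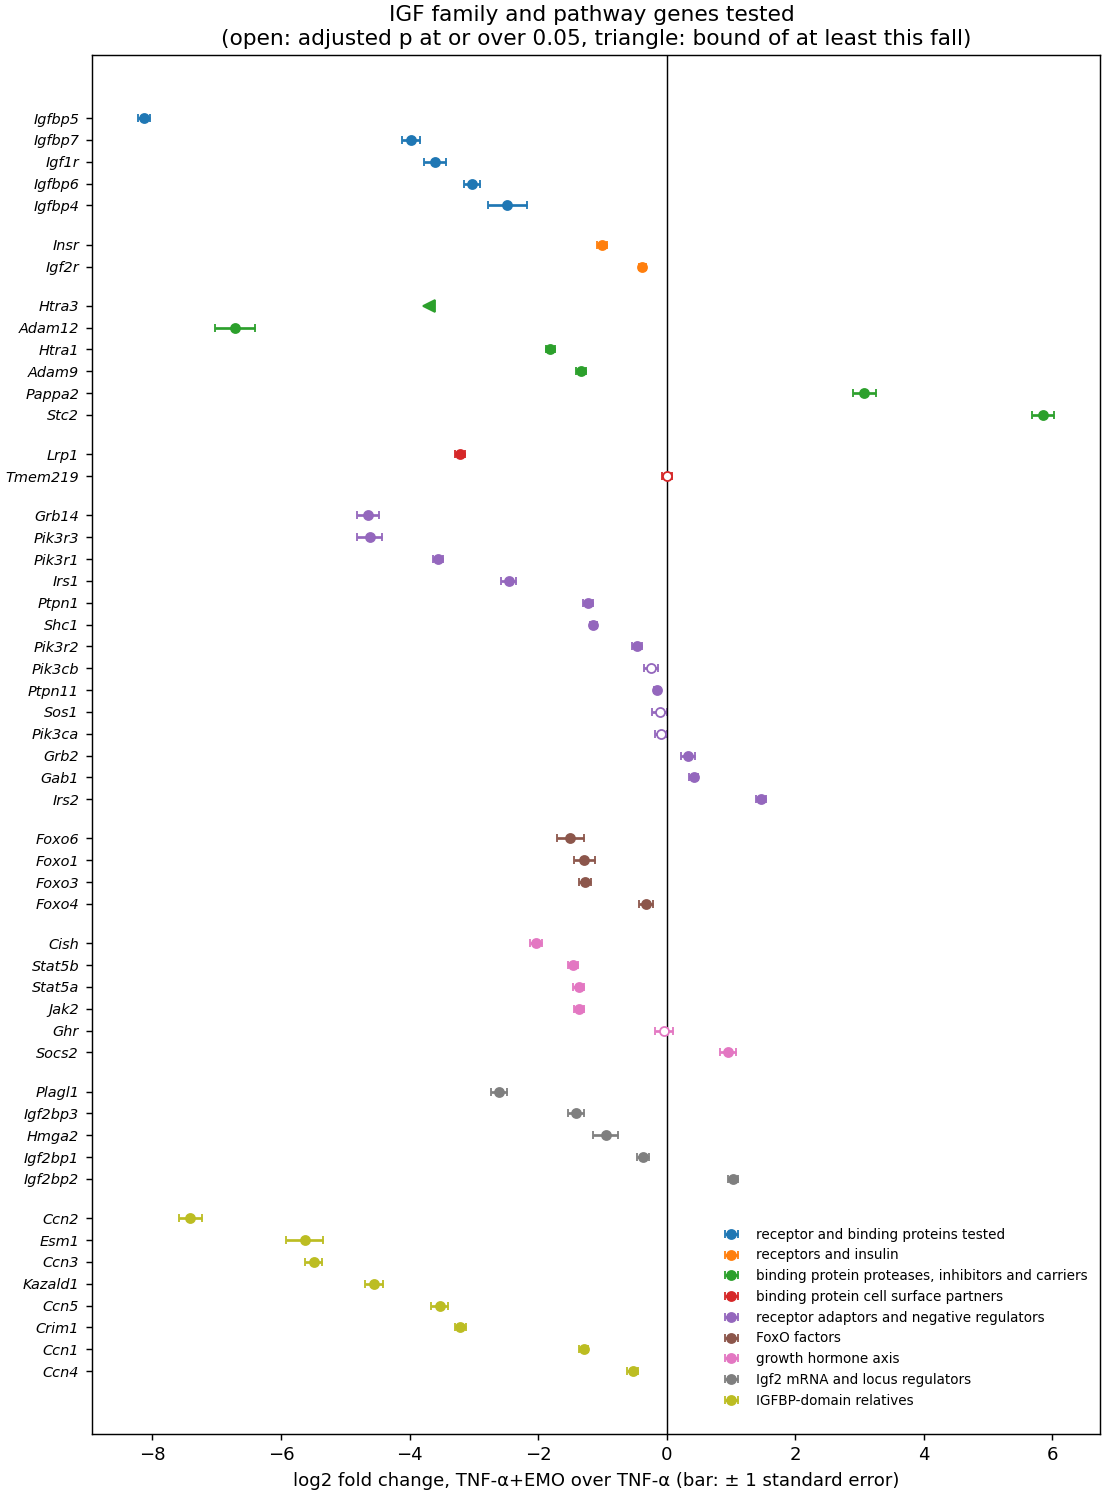
log2 fold change of TNF-α+EMO over TNF-α (x axis) with ± 1 standard error for the 5 tested members and the 47 tested genes of the 8 lists, grouped by list. Filled points passed an adjusted p of 0.05 and open points did not, and the triangle marks the bound for Htra3, whose TNF-α+EMO libraries are at 0. The 5 members and the 8 IGFBP-domain relatives lie left of 0, and Stc2 and Pappa2 lie furthest right.

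The genes whose profile over the 6 libraries was most like that of a member were found by the Euclidean distance of centred log2 CPM, over 9450 other named genes with a mean of at least 100 counts. With groups this far apart the distance mostly matches the size of the change. For Igfbp5 they were Vcam1 (an adhesion molecule), Thbs1 (thrombospondin 1) and Cd74 (the invariant chain), at distances of 0.41 to 0.47. For Igfbp6 they were Lmnb2 (lamin B2), Cxcl1 (a chemokine) and Pde3b (a phosphodiesterase), at 0.13 to 0.22. For Igfbp7 they were Dlx1 (a homeobox factor), Pdzrn3 and Col5a1 (a collagen chain), at 0.05 to 0.16.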

How the data were processed

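RNA of rat RA-FLS was sequenced in 6 libraries, 3 per group. The authors deposited raw, unscaled counts of every gene by library. Their FPKM columns, and their own comparison columns with group means, fold changes and p-values, were not used. Per the submitters' processing notes and the study's methods, FastQC, Trimmomatic and HISAT2 were used on Rnor_6.0. The counting program, annotation version and strand setting are not given in the sources used here.

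Samples were grouped by their titles. The 13614 genes reaching 10 counts in 3 or more libraries were scaled by TMM and tested with edgeR 4.0.16 in R 4.3.3 (robust quasi-likelihood F test, Benjamini-Hochberg adjustment over all genes tested, no covariate), and the script was tested on simulated data. The standard error is the log2 fold change divided by the square root of F. Counts per kb used the deposited gene length, an annotation value. Shares were compared by exact permutation tests. The biological coefficient of variation was 0.121. Folds against a group at the floor use 3 counts per library, which covers counting error only. Library totals were 16813322 to 17794455 counts.

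Named were all 10 members, called genes of the pathway lists, genes with a described role and, for the 3 members highest per kb over the 6 libraries, the 3 most similar genes. The members and lists were chosen with earlier results of these data known. Alternatives were DESeq2 1.42.0, other scalings, other filters, a replicate block, leave-one-out fits on the same genes, and shares or ratios without division by length or with another set of binding proteins. Promoter windows came from RefSeq (GRCr8), matched by symbol for all 10 members. No genome of the files' build was used.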

Additional observations from a re-analysis of the deposited data

How the results depend on the processing

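Igf1r, Igfbp4, Igfbp5, Igfbp6 and Igfbp7 stayed lower and past the threshold under all 13 alternatives (largest adjusted p = 5.0e-04), with Igfbp5 between -8.26 and -8.06 and Igfbp4 between -3.01 and -2.28 on the log2 scale. With no filter on low counts Igf2 was called as well, which gave 6 members. With the replicate number as a block, 10806 of all genes and the same number of members (5) and of pathway genes (42) were called. The deviations of same-numbered libraries correlated by 0.0193, -0.00683 and 0.0676, and not every library correlated best with its own number, so the numbers were not taken as pairs. Scaling by library totals alone moved the median of all genes from -0.01 to -0.125.

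Leaving out a library gave 39 to 43 called pathway genes, 5 members and 10450 to 11156 genes in all. Among 675 values of single genes, 658 kept their direction and side of the threshold. Over the fits without a library Tmem219 ranged from -0.04 to 0.05 and Pik3ca from -0.19 to 0.00, turning sign without TNF-α replicate 2 and without TNF-α+EMO replicate 3, and neither passed the threshold. Another 9 values lost their call (in Grb2, Ptpn11 and Foxo4) and 6 gained it (in Sos1 and Pik3cb). The cause was not tested. The binding protein to ligand ratio depends on its construction. With the ligand sum held at 3 counts on Igf1 it was 4154 in the TNF-α group and 214 with EMO. Without division by length it was 8486 and 118, and with Igfbp7 included 4412 in the TNF-α group. With each ligand held at its own count or 3 counts, an alternative chosen after seeing the data, it was 3097 and 147, the only one of these built as a lower bound. The depth limits what can be said of the ligands, Igfbp1, Igfbp2 and Igfbp3, which had 0 to 6 counts in each library.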
